A study of Bos taurus with 16 samples.

Results

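The genes described here are 10 markers of the trophectoderm, made up of 7 transcription factors (CDX2, GATA2, GATA3, TEAD4, TFAP2A, TFAP2C and ELF5) and 3 keratins of simple epithelia (KRT8, KRT18 and KRT19). They were taken by name from a deposited table of 27393 loci, and each name had 1 locus. The samples were individual bovine oocytes and embryos that had developed in vivo, without any treatment or genetic change named in the labels, and neither breed nor age is given there. There were 16 samples, 2 at each of 8 stages: mature oocytes (MII), 2-, 4-, 8- and 16-cell embryos (2C, 4C, 8C, 16C), early morulae (EM), compact morulae (CM) and blastocysts (BL). MII, 2C and 4C samples (n = 6) are called before embryonic genome activation (EGA), and 8C to BL samples (n = 10) after EGA. RNA of each oocyte or embryo was amplified in 2 rounds before SOLiD sequencing.

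The trophectoderm is the outer epithelium of the blastocyst and gives rise to the placenta. In mammals, TEAD4 is the DNA-binding partner of the Hippo pathway co-activator YAP, and it acts upstream of CDX2 and GATA3 in outer cells. TFAP2A and TFAP2C belong to the AP-2 family, GATA2 and GATA3 are zinc-finger factors of the trophoblast, and ELF5 is an ETS factor of trophoblast progenitors. KRT8 is a type II keratin that pairs with the type I keratins KRT18 and KRT19 to form the filaments of simple epithelia. Since whole embryos were sequenced, a blastocyst sample holds trophectoderm, inner cell mass and early hypoblast, and more cells of a type cannot be told apart from more RNA per cell.

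Recovered reads numbered between 607672 and 3379426 per sample, with a median of 1347534.5. Levels are given as CPM, the reads of a locus scaled to 1000000 reads of the sample. They are not divided by transcript length, so they are compared between stages of a gene and not between genes. A level of 3 reads, taken as the smallest detectable amount, was between 0.888 and 4.94 CPM, and this floor covers counting error only. Replicates correlated at r = 0.848 (8C) to 0.950 (4C) over all loci on log2(CPM + 1). Changes were tested with limma on log2(deposited value + 1), which understates the change of genes with few reads, with Benjamini-Hochberg adjustment over all loci tested and a threshold of 0.05.

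The mRNAs of the set followed 3 courses. TFAP2C and TEAD4 were at or under the detection floor until 4C and were present from 8C on. GATA2, GATA3, TFAP2A, KRT8, KRT18 and KRT19 were highest in both blastocysts. CDX2 and ELF5 had 1 and 2 reads in all 16 samples together. The 8 members other than CDX2 and ELF5 had enough reads for the test of a difference among the 8 stages. All 8 passed it, with adjusted p from 6.6e-08 (TFAP2C) to 0.00270 (GATA2), beside 66.7% of the 9670 loci tested. TFAP2A and KRT19 entered that test only through their blastocyst values, and TFAP2C, TEAD4 and KRT18 only through samples after EGA. A stage difference was thus built into their being tested.

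**Figure D1:**
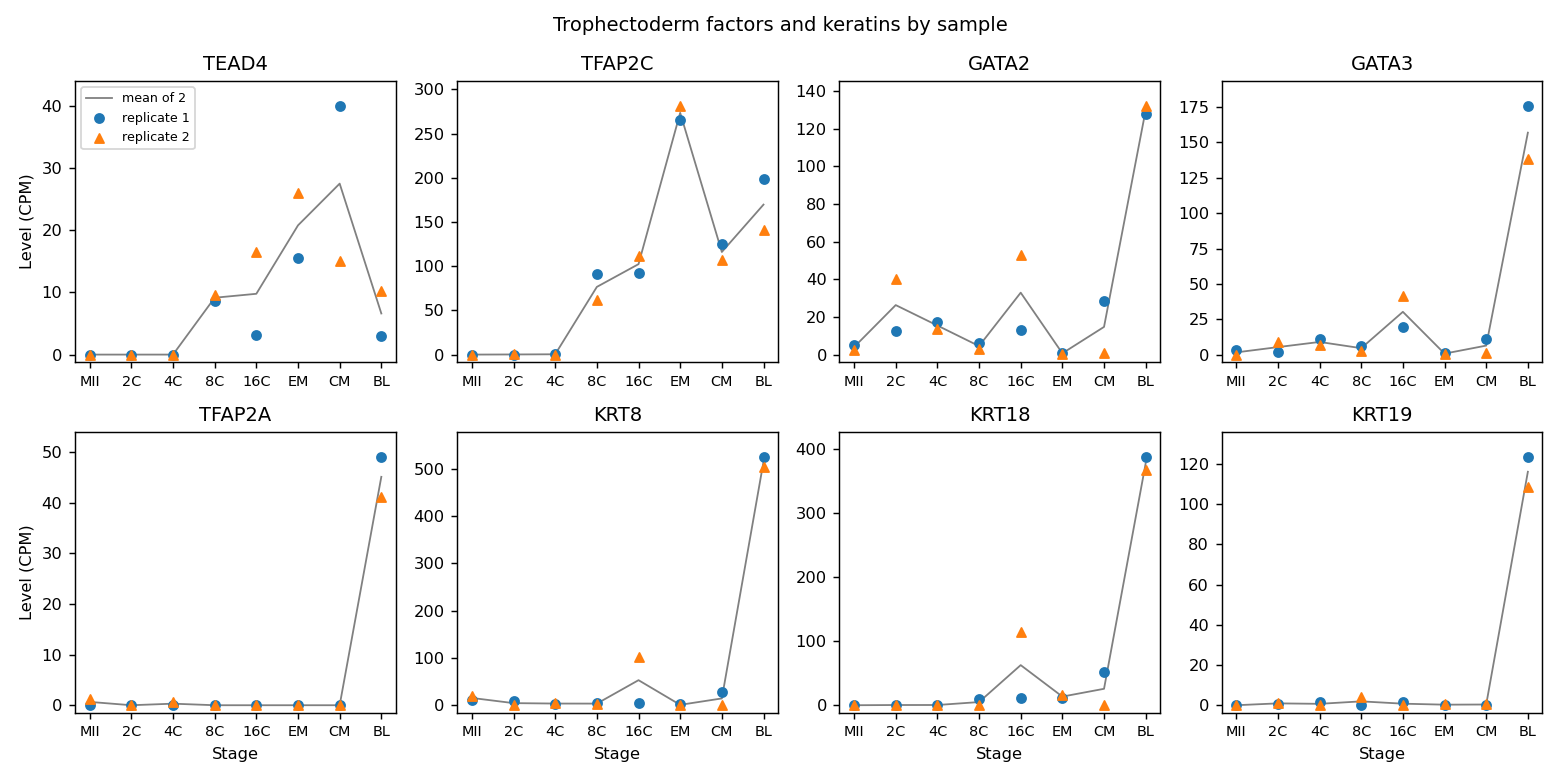
Level (CPM, linear axes that differ between panels) of the 8 members with more than 3 reads, by stage. Circles and triangles are replicates 1 and 2 and the grey line joins the means of 2. TEAD4 and TFAP2C rise from 0 or near 0 at 8C, whereas the other panels reach their highest points in the 2 BL samples, with 16C replicate 2 and CM replicate 1 above their partners for GATA2, GATA3, KRT8 and KRT18.

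TFAP2C (locus XLOC_012865), an AP-2 factor of trophoblast and germ cells, had 1 read in a 2C sample and 1 in a 4C sample, and none in the other 4 samples before EGA. Its level was 91.6 and 61.6 CPM in the 8C embryos and 92.7 and 112 CPM in the 16C embryos. It reached 266 and 281 CPM in EM. It was 125 and 107 CPM in CM and 198 and 141 CPM in BL. All 10 samples after EGA therefore lay above all 6 before it, as they did for TEAD4 and for 8.83% of the 15757 loci with more than 3 reads. The stages ranked, from low to high by mean, 8C, 16C, CM, BL and EM. The ranges of 16C and CM overlapped, and those of the other neighbours in this order did not. Pooled over samples, the level was 995 times higher after EGA than before it (95% counting interval 275 to 8219, with 2 reads before). The limma change was 6.96 ± 0.34 on the log2 scale (SE, adjusted p = 2.7e-12). TFAP2C passed the filter on low reads only through samples after EGA, so a difference was built into its being tested.

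TEAD4 (XLOC_057697) had no read in the 6 samples before EGA and reads in each of the 10 samples after it. The 8C embryos were close to each other, at 8.66 and 9.62 CPM. The level was 3.09 and 16.5 CPM in 16C, 15.5 and 26.03 CPM in EM and 40.0 and 15.0 CPM in CM. BL had 2.95 and 10.3 CPM, which overlaps with 8C and 16C and lies under EM and CM. The rise after EGA was at least 64.0-fold, computed against 3 reads over the 6 earlier samples, and the limma change was 3.76 ± 0.46 (adjusted p = 4.1e-07). TEAD4, too, passed the filter only through samples after EGA. The fall from CM to BL was not past the threshold, at -2.11 ± 0.81 (adjusted p = 0.170), and BL rested on 10 reads.

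The comparison of 8C with 4C, which spans EGA in embryos developed in vivo, gave TFAP2C and TEAD4 as the 2 members past the threshold. Their limma changes were 6.17 ± 0.59 (adjusted p = 8.4e-06) and 3.70 ± 0.81 (adjusted p = 0.00291). Over all 9670 loci 17.7% were called higher and 19.1% lower at this step. The other 6 members tested had changes between -1.68 (GATA2) and 1.5 (KRT18), not past the threshold. The 95% interval for GATA3, from -3.04 to 1.22, and that for KRT8, from -3.12 to 2.91, leave room for large changes in either direction.

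Between the periods before and after EGA as a whole, 6 members could be tested and 3 were called, TFAP2C, TEAD4 and KRT18. The change of KRT18 was 4.21 ± 1.07 (adjusted p = 0.00166). All 3 passed the filter only through samples after EGA, so their number is a description. Of the 6910 loci in that comparison, 36.9% were called higher after EGA and 29.9% lower. GATA3 (1.12 ± 0.97, adjusted p = 0.316), KRT8 (0.59 ± 1.26, adjusted p = 0.691) and GATA2 (-0.46 ± 0.93, adjusted p = 0.670) were not called. A count test on the recovered reads called GATA3 and KRT8 as well. Their adjusted p were 0.0389 and 0.0468 with edgeR, and 0.0132 and 0.0458 with DESeq2. Both tools turned GATA2 to a positive change (0.91 and 0.92) that was not past the threshold. Without both blastocysts, limma still called 3 members.

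**Figure D2:**
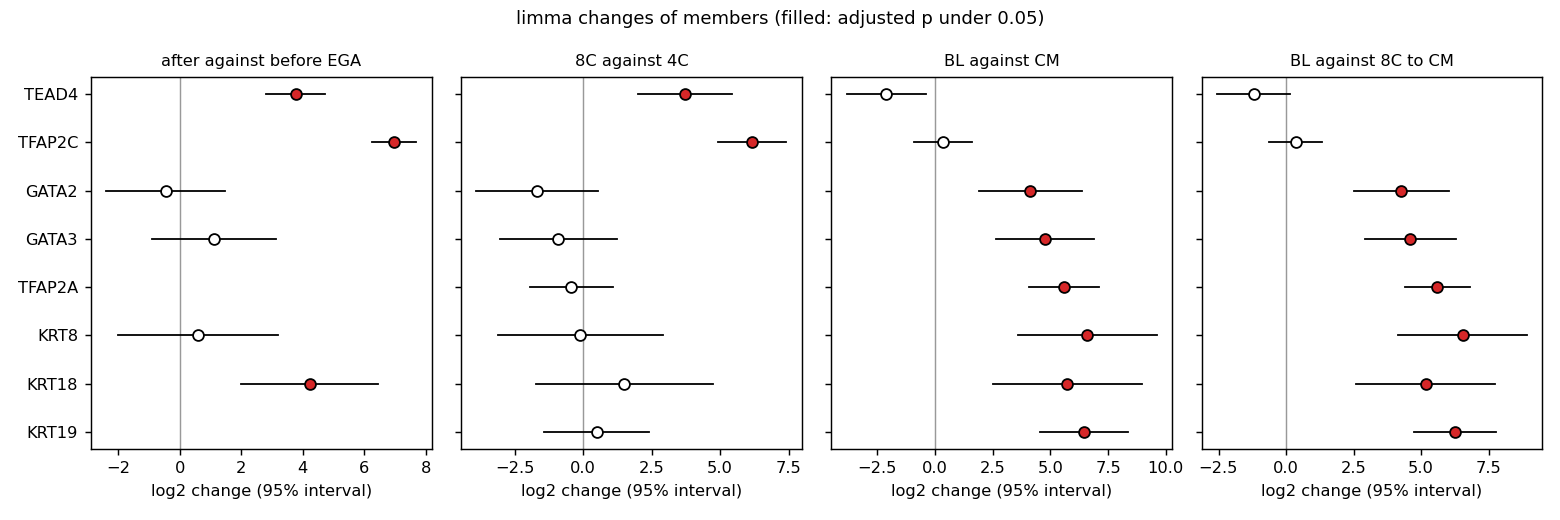
Fitted log2 changes (limma, log2 of the deposited value + 1) of the members in 4 comparisons, with 95% intervals as bars and filled points where the adjusted p was under 0.05. TEAD4 and TFAP2C are filled in the 2 comparisons across EGA and open in the 2 with BL, whereas GATA2, GATA3, TFAP2A, KRT8, KRT18 and KRT19 are filled in both of the latter. TFAP2A and KRT19 were not tested after against before EGA and have no point there.

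In the blastocyst, 6 members rose over the 8 samples from 8C to CM. They were the transcription factors GATA2, GATA3 and TFAP2A and the keratins KRT8, KRT18 and KRT19. Among all loci tested, 6.81% were called higher and 3.99% lower in that comparison. The same 6 had both BL samples above each of the 14 others, which held for 7.96% of the 15757 loci with more than 3 reads.

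GATA3 (XLOC_012632), a trophoblast factor downstream of TEAD4, was at 176 and 138 CPM in the 2 BL samples. It had between 0 and 11.1 CPM before EGA, 6.19 and 2.89 CPM in 8C, 19.3 and 41.1 CPM in 16C, 0.817 and 0.554 CPM in EM and 11.3 and 1.43 CPM in CM. The lowest blastocyst was thus well above the highest earlier sample, 16C replicate 2. The pooled level was 20.1 times higher in BL than in 8C to CM (counting interval 15.5 to 26.5). The limma change was 4.59 ± 0.79 (adjusted p = 0.00168).

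GATA2 (XLOC_037487), the paralogue that acts in trophoblast and in blood precursors, was at 128 and 132 CPM in BL. It was also present before EGA, at 5.32 and 2.63 CPM in MII, 12.6 and 39.9 CPM in 2C and 17.4 and 13.5 CPM in 4C. It stood at 6.19 and 2.89 CPM in 8C and at 0.817 and 0.554 CPM in EM, with 13.1 and 52.7 CPM in 16C and 28.7 and 0.714 CPM in CM. Its pooled level in BL was 13.5 times that of 8C to CM (10.5 to 17.4), with a limma change of 4.27 ± 0.83 (adjusted p = 0.00411). GATA2 and GATA3 had 8 reads each in 8C and 2 each in EM, so their equal levels there carry wide counting error.

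TFAP2A (XLOC_039528), the second AP-2 factor, had 49.1 and 41.1 CPM in BL (78 reads) and no read in any of the 8 samples from 8C to CM. Before EGA it had 4 reads, 3 of them in MII replicate 2. The difference between BL and 8C to CM was at least 140-fold against 3 reads over the 8 samples. The limma change was 5.60 ± 0.56 (adjusted p = 2.4e-05), for a gene that passed the filter on low reads only through BL, so that a difference was built into its being tested.

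KRT8 (XLOC_056577) was at 525 and 503 CPM in the blastocysts. Before EGA it was highest in MII, at 11.5 and 19.3 CPM, and between 0.888 and 7.99 CPM in 2C and 4C. It had 4.95 and 1.92 CPM in 8C, 3.86 and 102 CPM in 16C, 1.63 and 0 CPM in EM and 28.7 and 0 CPM in CM. The pooled level was 45.9 times higher in BL than in 8C to CM (37.4 to 56.9). With each sample left out in turn it ran from 36.9 times (without EM replicate 2) to 108 times (without 16C replicate 2, the highest of 8C to CM). The limma change was 6.53 ± 1.12 (adjusted p = 0.00165).

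KRT18 (XLOC_057260), the usual partner of KRT8, had 2 reads in the 6 samples before EGA and 388 and 367 CPM in BL. In between it was at 9.90 and 0 CPM in 8C, 11.6 and 114 CPM in 16C, 11.4 and 15.5 CPM in EM and 51.3 and 0 CPM in CM. KRT18 thus had reads in both EM samples, where KRT8 had 2 reads in all. The rise over 8C to CM was 18.9-fold in pooled reads (16.0 to 22.4), with a limma change of 5.16 ± 1.20 (adjusted p = 0.0127). DESeq2 did not call it (adjusted p = 0.151). In the gene table of assembly ARS-UCD2.0, KRT18 and KRT8 are neighbours with 1 lncRNA gene between them.

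KRT19 (XLOC_028070), the smallest type I keratin of simple epithelia, was at 124 and 109 CPM in BL. In the other 14 samples it ranged from 0 to 3.85 CPM with a median of 0.277 CPM, and 16C replicate 2 and CM replicate 1 had no read of it. The pooled rise over 8C to CM was 135-fold (67.0 to 316, with 8 reads in 8C to CM). With each sample left out in turn it ran from 117-fold (without EM replicate 1) to 239-fold (without 8C replicate 2, the highest of 8C to CM). The limma change was 6.25 ± 0.71 (adjusted p = 4.8e-05). Like TFAP2A, KRT19 passed the filter only through BL.

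As a share of the sum of the 8 stage means, the blastocyst held 97.9% of TFAP2A, 95.9% of KRT19, 84.4% of KRT8, 77.9% of KRT18, 73.2% of GATA3 and 56.9% of GATA2. It held 23.0% of TFAP2C and 9.0% of TEAD4, where an even spread over the stages would give each stage an equal part.

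Against compact morulae alone, the step just before the blastocyst, the same 6 members were called, beside 2.92% of loci called higher and 1.5% lower. The limma changes were 6.59 ± 1.42 for KRT8 (adjusted p = 0.0136), 6.47 ± 0.90 for KRT19 (adjusted p = 7.4e-04), 5.73 ± 1.52 for KRT18 (adjusted p = 0.0432) and 5.60 ± 0.71 for TFAP2A (adjusted p = 4.9e-04). They were 4.75 ± 1.00 for GATA3 (adjusted p = 0.0119) and 4.13 ± 1.05 for GATA2 (adjusted p = 0.0350). TFAP2C did not pass the threshold, with a change of 0.35 ± 0.59 and a 95% interval from -0.90 to 1.60. Without CM replicate 2, without BL replicate 1 or without BL replicate 2, only TFAP2A and KRT19 stayed past the threshold, with 132, 366 and 137 loci called. Such a fit leaves CM or BL with 1 sample, which is assumed to vary like the other stages. Since these are the 2 members that passed the filter only through BL, their calls are a description and no sign of stability. KRT18 lost its call in 13 of the 16 fits with a sample left out and GATA2 in 7. Over these fits the change from CM to BL ran from 4.09 to 9.09 for KRT8, 2.82 to 8.64 for KRT18, 2.11 to 6.16 for GATA2 and 3.65 to 5.85 for GATA3, the lowest without CM replicate 2 and the highest without CM replicate 1. edgeR called GATA3 and KRT19, and DESeq2 called GATA3, KRT8 and KRT19. For BL against 8C to CM, 4 members were called without BL replicate 1 and 3 without BL replicate 2, namely GATA3, TFAP2A and KRT19.

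16C replicate 2 and CM replicate 1 stood above their partners for GATA2, GATA3, KRT8 and KRT18, and also for TEAD4 and, by a smaller margin, TFAP2C. In 16C replicate 2 the level was 40.5% of the blastocyst mean for GATA2, 30.1% for KRT18, 26.2% for GATA3 and 19.8% for KRT8, whereas KRT19 and TFAP2A had no read there. In CM replicate 1 the corresponding values were 22.1%, 13.6%, 7.19% and 5.58%. The partner embryo CM replicate 2 had no read of KRT8 or KRT18. These 2 samples were picked for their high values, so leaving both out could only widen the difference from BL, and nothing is read from the 6 members being called without them, where CM is 1 sample. Among genes outside the set the order varied. 16C replicate 2 had more GATA6 (400 against 134 CPM) and TEAD1 (107 against 33.2 CPM) than 16C replicate 1. Its summed level of 4 hypoblast genes was 441 against 148 CPM. It had less TEAD3 (1.65 against 9.27 CPM), BMP4 (8.23 against 16.2 CPM) and the locus named KRT5 (1733 against 2761 CPM). In CM, replicate 1 had less TEAD1 than replicate 2 (11.3 against 35.0 CPM), and GATA6 was at 251 and 231 CPM. What set these 2 samples apart was not tested.

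**Figure D3:**
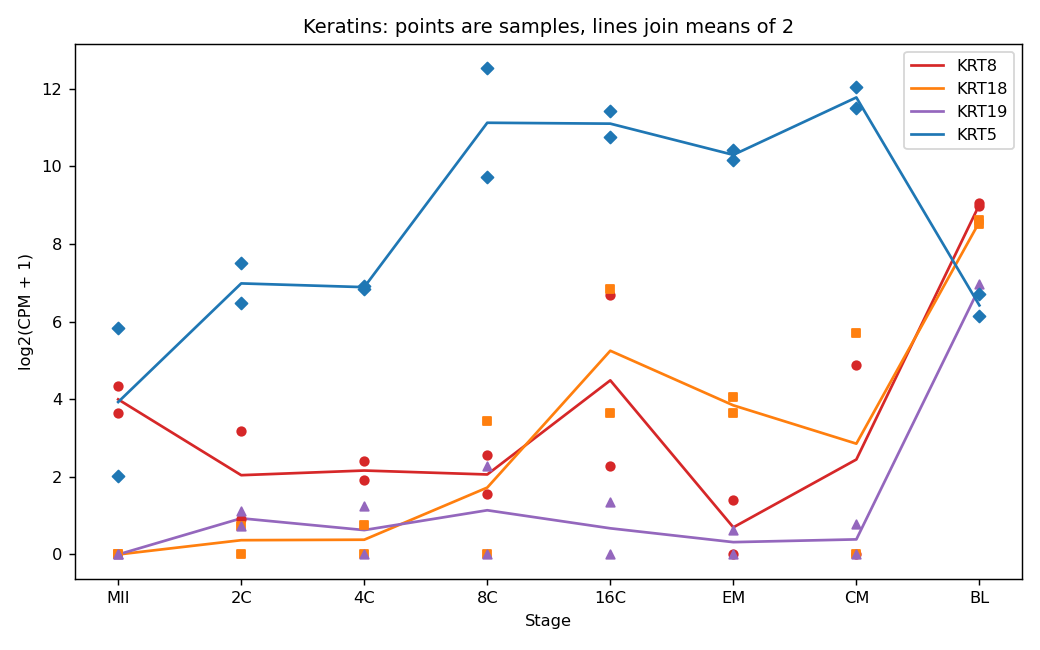
Level of 4 keratins by stage on a log2(CPM + 1) axis, with points as samples and lines joining the means of 2. KRT8, KRT18 and KRT19 end at their highest values in BL, whereas the locus named KRT5 is high from 8C to CM and drops in BL.

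Other keratins were measured to see whether the rise at BL held across the family. Of 50 further keratin names, 28 had no read (4 of them, KRT1, KRT3, KRT76 and KRT77, in a run of 2578 consecutive loci without reads, where a 0 may not mean absence), 13 had more than 3 reads and 3 (KRT5, KRT10 and KRT222) could be tested, of which only KRT5 was called in the comparisons with BL, as lower, beside 1.5% of all loci called lower against CM and 3.99% against 8C to CM. The locus named KRT5 (XLOC_057261), after a type II keratin best known from basal cells of stratified epithelia, ran the other way. Its name could not be checked against a gene model, and its identifier directly follows that of KRT18, away from that of the second locus of the same name (XLOC_056586). It was at 55.8 and 3.07 CPM in MII, 180 and 87.3 CPM in 2C and 120 and 114 CPM in 4C. It had 5877 and 840 CPM in 8C, 2761 and 1733 CPM in 16C, 1366 and 1149 CPM in EM and 4181 and 2916 CPM in CM, all above the 6 earlier samples. In BL it was back at 103 and 69.0 CPM. The limma change was 4.23 ± 1.03 from 4C to 8C (adjusted p = 0.00572) and -5.53 ± 1.03 from CM to BL (adjusted p = 0.00521). The second locus went from a mean of 89.3 CPM in CM to 1.96 CPM in BL. How reads shared by similar keratins were counted is not given in the sources used here. KRT7, a simple-epithelial keratin on the list of trophoblast genes, had at most 3.09 CPM in any sample.

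CDX2 (XLOC_010344), the homeobox factor at the head of the trophectoderm program in mouse, had a single read, in 8C replicate 1. No read was found among the 1699432 reads of the 2 blastocysts, which allows a level of up to 1.77 CPM over that stage. ELF5 (XLOC_017771) had 2 reads, both in 4C replicate 2, and likewise none in BL. Neither gene could be tested, and their expression in the blastocyst was not detectable at this depth.

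Relatives of the members from the same families differed among themselves in when they were present. TFAP2B, another AP-2 factor, had 86.0 and 15.3 CPM in MII, 31.3 and 299 CPM in 2C and 337 and 417 CPM in 4C. It then had 0 and 38.5 CPM in 8C and at most 2.95 CPM in the later samples. Its change at EGA was -6.41 ± 0.80 (adjusted p = 5.0e-07), opposite in sign to that of TFAP2C. TFAP2D was found before EGA only, at 2.00 to 7.98 CPM.

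GATA6, the factor of the hypoblast, rose at EGA, from at most 5.99 CPM before EGA to 118 and 100.04 CPM in 8C, and it was at 166 CPM in each BL sample. Its change was 6.90 ± 0.44 at EGA (adjusted p = 7.8e-11, with the filter passed only through samples after EGA) and -0.71 ± 0.77 from CM to BL (adjusted p = 0.699). GATA1 and GATA5 had no read and GATA4 had 1 read, in BL replicate 1.

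Among the TEAD factors, TEAD3 and TEAD2 were called higher in BL than in 8C to CM, by 2.16 ± 0.64 (adjusted p = 0.0404) and 2.97 ± 0.89 (adjusted p = 0.0433), beside 6.81% of all loci called higher. Against CM alone neither passed the threshold (1.51 ± 0.81, adjusted p = 0.350, and 2.82 ± 1.13, adjusted p = 0.192). TEAD3 had 37.3 and 42.6 CPM in BL, above the other 14 samples. TEAD2 had 12.8 and 13.2 CPM in BL but 24.7 CPM in 16C replicate 2. TEAD1 had at least 1 read in each of the 16 samples (1 read, under the floor, in MII replicate 2) and was not called in either comparison with BL, at 59.9 and 89.5 CPM in BL.

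Of the ETS factors related to ELF5, ELF1 changed at EGA by -3.42 ± 0.50 (adjusted p = 4.2e-06) and ELF2 rose by 5.03 ± 0.50 (adjusted p = 2.2e-08). ELF2 had at most 7.99 CPM before EGA and 26.9 to 398 CPM after it. CDX1, the paralogue of CDX2, had 1.23 to 4.86 CPM in 2C and 4C and 1.92 CPM in 8C replicate 2, and no read from 16C on. Over the 8 relatives tested, 3 were called higher and 2 lower at EGA among the 6 that could be tested there, beside 36.9% and 29.9% of all loci. The 5 passed the filter only through the period in which they were high, and nothing is read from these counts.

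**Figure D4:**
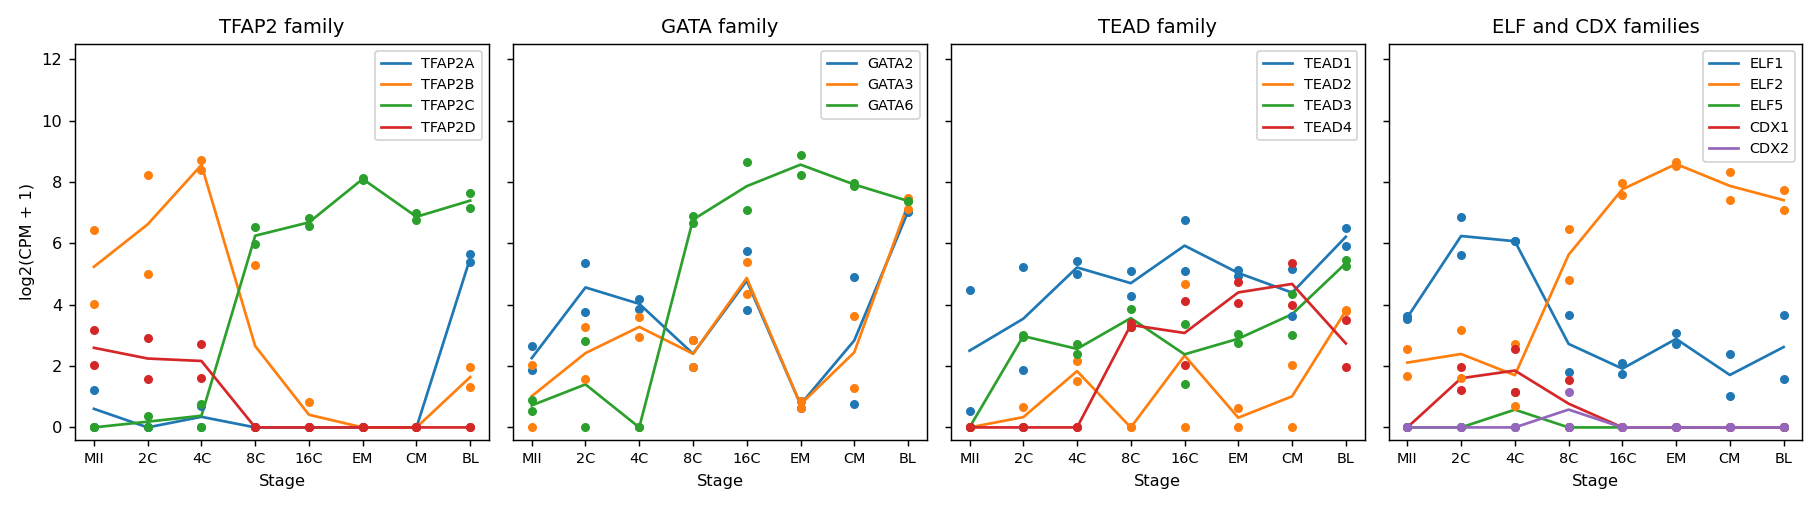
Members and their relatives by family on a log2(CPM + 1) axis, with points as samples and lines joining the means of 2. TFAP2B gives way to TFAP2C at 8C and TFAP2A appears in BL, GATA6 is high from 8C while GATA2 and GATA3 peak in BL, TEAD3 is highest in BL, and ELF1 gives way to ELF2.

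Other genes of the trophoblast came from a list of 26, of which 25 had a locus, 21 had more than 3 reads and 12 could be tested. From CM to BL, 5 of the 12 were called, all of them higher, with a median change of 1.68 on the log2 scale beside 0.11 over all loci, of which 2.92% were called higher. VGLL1, PAG2 and ASCL2 passed the filter only through BL, so the count and the median describe these genes and do not support a difference. VGLL1, a co-factor of TEAD proteins, had 113 and 156 CPM in BL and at most 4.94 CPM elsewhere (7.14 ± 0.68, adjusted p = 9.4e-05). PTGS2, the enzyme of prostaglandin synthesis, had 277 and 216 CPM in BL and 67.5 CPM in 16C replicate 2 (6.96 ± 1.39, adjusted p = 0.00800). PAG2, a pregnancy-associated glycoprotein of ruminant trophoblast, had 88.4 and 129 CPM in BL and reads in only 2 other samples, 16C replicate 2 and CM replicate 1 (5.48 ± 0.82, adjusted p = 0.00123). ASCL2, a trophoblast bHLH factor, had 8.84 and 14.7 CPM in BL and 1 read elsewhere (3.17 ± 0.61, adjusted p = 0.00627). ETS2, which acts on interferon tau genes, had 10.8 and 7.34 CPM in BL and no read in CM (3.38 ± 0.78, adjusted p = 0.0201), but 9.27 and 6.58 CPM in 16C. Against 8C to CM, 4 of the 12 were higher in BL, 3 of them the same filter-bound genes, and 1 was lower, beside 6.81% and 3.99% of all loci. At EGA, KLF5, BMP4 and IFNT2 were higher among 6 tested, beside 36.9% of all loci, and all 3 passed the filter only through samples after EGA.

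Interferon tau, the ruminant signal of pregnancy recognition, did not follow the members. IFNT had 27.0 and 31.3 CPM in 16C and no read in BL, and its change between BL and 8C to CM was -2.06 ± 0.55 (adjusted p = 0.0254). It passed the filter only through 16C, so this describes where it was found. IFNT2 had 17.0 and 70.8 CPM in 16C and at most 4.4 CPM in BL, and these near-identical genes may share reads. EOMES, a T-box factor of mouse trophoblast, had 17.6 CPM in BL replicate 2 and no read in the other 15 samples. HAND1 had 1 read in all.

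**Figure D5:**
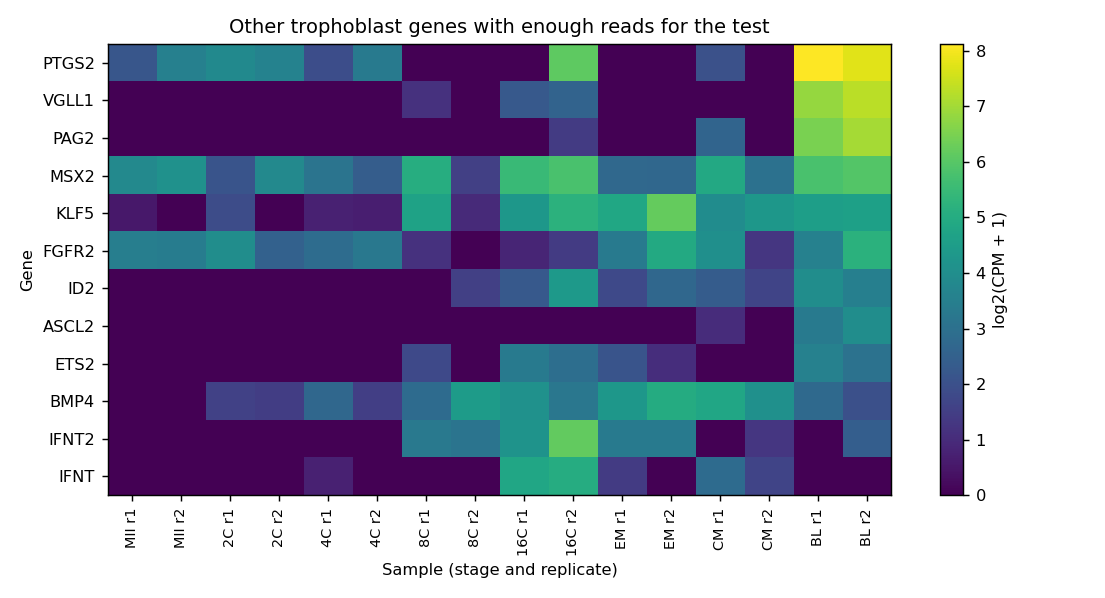
Level, as log2(CPM + 1) by colour, of the 12 other trophoblast genes with enough reads for the test (rows, ordered by their BL level) in the 16 samples (columns). PTGS2, VGLL1 and PAG2 are brightest in the 2 BL columns, KLF5 and BMP4 are brightest in EM replicate 2, and IFNT and IFNT2 are brightest at 16C.

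Of the genes of other cell types of the embryo, 2 of 3 for the inner cell mass and 2 of 4 for the hypoblast could be tested, and SOX2, SOX17 and GATA4 could not. POU5F1 and NANOG, factors of the inner cell mass, rose at EGA by 3.53 ± 0.36 (adjusted p = 3.2e-08) and 4.03 ± 0.74 (adjusted p = 6.8e-05), where NANOG had no read before EGA and passed the filter only through later samples. From CM to BL they changed by -0.52 ± 0.57 (adjusted p = 0.702) and 2.65 ± 1.01 (adjusted p = 0.170). PDGFRA of the hypoblast was at 133 and 109 CPM in BL, above each of the 14 other samples, as the 6 members were. Its pooled level was 2.12 times that of CM (1.70 to 2.65), and its limma change from CM to BL was 0.85 ± 0.62 (adjusted p = 0.526).

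Cells that could travel with an embryo were looked for by 7 genes of cumulus and granulosa cells, all with a locus, and 2 of blood. The summed cumulus level was 9.32 to 32.6 CPM before EGA, 0 to 14.4 CPM from 8C to CM and 41.3 and 61.6 CPM in BL. AMH and FOXL2 had no read in any sample, and FSHR had none after EGA. CYP11A1 had reads in the 2 BL samples only (3.93 and 2.94 CPM), and CYP19A1 had 2.95 and 2.94 CPM there. The value in BL came mostly from HSD3B1, a steroid-synthesis enzyme that placenta also expresses, at 34.4 and 54.3 CPM (5.54 ± 0.86 against CM, adjusted p = 0.00138, for a gene that passed the filter only through BL). In 16C replicate 2 and CM replicate 1 the sum was 4.94 and 1.03 CPM. Of the oocyte genes, ZAR1 was also higher in 1 of these samples, at 44.4 CPM in 16C replicate 2 and 0 CPM in 16C replicate 1. GDF9 went the other way, with 0 and 2.32 CPM, and ZP3 had 1.65 and 0 CPM. The summed level of GDF9, ZP3 and ZAR1 was 46.1 CPM in 16C replicate 2 and 2.32 CPM in 16C replicate 1. The same sum was 67.5 to 241 CPM before EGA, 0 and 68.3 CPM in 8C and 0.982 to 5.87 CPM in EM, CM and BL. At EGA both oocyte genes tested, GDF9 (-5.22 ± 0.61) and ZAR1 (-5.13 ± 0.85), were called lower (adjusted p = 2.1e-07 and 2.0e-05), having passed the filter only through samples before EGA. The part of cumulus cells or of stored oocyte RNA in the levels of the members was not tested. Of the blood genes, HBB had no read and PTPRC had 4 reads, in 8C replicate 1.

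Loci with the most similar course were sought for KRT8, KRT18, GATA3 and TFAP2C, each with 100 or more reads. The search covered 5517 named loci with a stage difference, with no read minimum beyond the filter of that test. Loci were ranked by the Pearson correlation of 8 stage means. These values describe 8 points that share their libraries. For KRT18 the closest were RHOV (r = 0.99), PTGR1 (0.99), ABCB6 (0.98), G2E3 (0.98) and SMTNL2 (0.98). For KRT8 they were SFN (0.94), PIP4K2A, NUCKS1, HNF4A and DUT (0.93 each), all highest in BL. For GATA3 they were HPCAL1, USP43, ASRGL1, CD63 and C7H5orf32 (0.96 each). For TFAP2C they were MTHFD1L, SLC2A3, HNRNPAB, ZNF266 and FBXW12, the last at 0.99, with MTHFD1L, SLC2A3 and FBXW12, like TFAP2C, highest in EM.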

How the data were processed

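RNA of individual bovine oocytes and embryos had been amplified with a 2-round aRNA kit, and libraries were made with the SOLiD Total RNA-Seq Kit. The submitters' processing notes name cutadapt, FastQC, TopHat, Cufflinks and HTSeq, and the genome build is not given in the sources used here. The deposited values are a signal per locus, counts that the authors divided by a size factor of each sample. Dividing by the smallest non-zero value of a sample gave whole reads for 100% of values (tolerance 0.01). From these reads CPM was computed.

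limma 3.58.1 (R 4.3.3, empirical Bayes with a trend) was fitted to log2(deposited value + 1) over all loci kept by filterByExpr of edgeR. The 8-stage model held 9670 loci and gave the stage effect, 8C against 4C, BL against CM and BL against the mean of 8C to CM. A model of 2 groups held 6910 loci and gave after against before EGA. limma took the place of a count test as the main test because the deposited values are scaled. edgeR 4.0.16 and DESeq2 1.42.0 on the recovered reads were alternatives, and at the threshold edgeR called 154 loci between BL and CM where limma called 427. The tests were checked on simulated counts. The share of false calls was above the threshold in the contrasts between stages (8C against 4C, BL against CM and BL against 8C to CM). It was also above it, by a small margin, in the stage effect. Adjusted p near the threshold in these tests are to be read with caution. Pooled folds use summed reads with exact counting intervals of 95%, and against 0 reads they are bounds set by 3 reads over the group.

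The members and the gene lists were chosen with earlier results of these data known. Named genes were the members, list genes past the threshold, defining markers and the 5 loci nearest to each of KRT8, KRT18, GATA3 and TFAP2C. EOMES, HAND1, KRT7, CDX1 and the library comparison of 16C and CM samples were added after their values were seen. Groups came from the sample titles. Whether replicates came from separate animals is not given, so p-values measure the spread between these embryos. Same-numbered samples are different embryos. Alternatives were scaling by TMM or by total reads, a pseudocount of 0.5 or 5, leaving out the filter, the replicate block, each sample left out, summed loci and the authors' scale. A run of 2578 consecutive loci without reads in any sample holds 6 listed genes (ELF3, BMP15, KRT1, KRT3, KRT76 and KRT77) and none of the members, so these 6 are listed at 0 and were not read as absent. No sequence is shown, since no genome or sequence table was used here.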

Additional observations from a re-analysis of the deposited data

Results flagged for a closer look

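In the 8 samples from 8C to CM, 4 members had a sample far from the others, measured as its gap to the nearest other sample divided by the range of the group (threshold 0.526 for 8 samples). In 16C replicate 2 this ratio was 0.719 for KRT8 (102 CPM, next 28.7 CPM), 0.549 for KRT18 (114 CPM, next 51.3 CPM) and 0.538 for GATA3 (41.1 CPM, next 19.3 CPM). For KRT19 the sample was 8C replicate 2, with a ratio of 0.598 (3.85 CPM, next 1.55 CPM), which is 4 reads. Over the 20 groups examined, chance flags about 1 in 20.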

How the results depend on the processing

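Over alternatives, 229 of the counts of loci or members kept to within 1.5 times the main count, 6 rose and 13 fell, and of the values of single members 899 kept their direction and side of the threshold, 43 lost and 4 gained the call and 9 reversed. All 8 members tested kept the stage effect in every setting run, beside 66.7% of all loci called in the main fit. For TFAP2A, KRT19, TFAP2C, TEAD4 and KRT18 a stage difference was built into their being tested, so this is a description and no sign of stability. After against before EGA, omitting the filter gave 7075 loci, and edgeR and DESeq2 gave 5 members each. GATA2 reversed there to 0.91 (edgeR) and 0.92 (DESeq2). BL against CM gave 154 loci and 2 members with edgeR and 3 members with DESeq2, and 4 members with a pseudocount of 0.5 or with no filter. With each sample left out, the loci called for 8C against 4C ran from 1935 to 3844, the lowest without a 4C sample (1935 and 2003). For BL against CM they ran from 132 to 670 (2 to 6 members), the highest without an 8C sample (660 and 670), and for BL against 8C to CM from 234 (without BL replicate 2) to 1620 (without 8C replicate 1), with 3 to 6 members. In 8C against 4C, where no call was made for them, KRT8 reversed to 0.0102 with edgeR and reached 0.15 and 0.55 in 2 of its leave-one-out values (-0.77 to 0.55), KRT18 ran from -0.47 to 3.47, KRT19 from -0.75 to 1.73 with a further reversal at -0.27, and TFAP2A from -0.86 to 0. The cause was not tested. Another scaling moved the share of higher calls from 55.2% to 64.3% at EGA (total reads) and from 63.1% to 52.3% in BL against 8C to CM (TMM factors). The median of all loci at EGA moved from 0.23 to 0.67 with total reads, and the members' calls were the same under both scalings in these 2 comparisons.

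Replicate numbers did not pair the samples: over 28 pairs of stages the deviations of same-numbered samples correlated at -0.257 to 0.134, with 1 pair over 0.1. The replicate block gave 392 loci and 6 members for BL against CM, 1029 loci and 6 members for BL against 8C to CM, 4579 loci at EGA and 6381 for the stage effect, and moved no count of members. With 607672 to 3379426 reads per sample, levels under 0.888 to 4.94 CPM were not detectable.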
